A study of Mus musculus with 8 samples.

Results

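Heat shock factors, the protein that binds them, a pair of cold-induced RNA-binding proteins and a heat-inducible collagen chaperone were followed in MLO-Y4 cells after laser irradiation. The set was chosen by name and holds 6 genes, Hsf1, Hsf2, Hsbp1, Cirbp, Rbm3 and Serpinh1, out of 55359 gene identifiers in the deposited table. All 6 were among the 15164 genes that passed the filter on low counts. MLO-Y4 is a clonal mouse cell line with features of osteocytes, derived from long bone of mice that carried a viral large T antigen under the osteocalcin promoter, and both groups are labelled as wild type. Of the 8 libraries 4 came from non-irradiated cells, and 4 from cells under a pulsed Er:YAG laser (2940 nm, 6 J/cm2) for 1 min, with the emitter 25 cm from the bottom of the dish. Cells had been seeded 72 h earlier in 35-mm dishes, and dishes were coated with rat tail collagen. RNA was taken 6 h after exposure and its poly(A) fraction was sequenced. Medium was taken off before irradiation; whether it was also taken off the non-irradiated dishes, and what temperature the dishes reached, is not given in the sources used here. Nothing in the labels tells whether the replicates came from separate cultures. The p-values thus set the difference between groups only against the spread among these samples, and that spread may be technical.

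Cells answer heat and cold through separate sets of genes. HSF1, the main heat shock factor, is held inactive by chaperones; on heat it is released, forms trimers and binds heat shock elements, which are inverted repeats of the letters GAA, before chaperone genes. HSF2 is a related factor that can form mixed trimers with it, and HSBP1 binds the trimers and dampens HSF1. CIRBP and RBM3 are small RNA-binding proteins with an RNA recognition motif and a glycine-rich tail, and their transcripts are known to rise on mild cooling and to fall on heating. SERPINH1, also called HSP47, is a heat-inducible chaperone of the endoplasmic reticulum that binds procollagen, and it is prominent in bone-forming cells.

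The upstream windows of Cirbp, Serpinh1 and Hspa1b are printed to show which of them hold a sequence described as responding to cold or heat. The sequences come from the RefSeq table for GRCm38.p6, which held windows for 4 of the 6 genes (Hsf2, Hsbp1, Cirbp and Serpinh1). Each was read 5′ to 3′ on the strand of its gene. Capitals mark TCCCCGCC on either strand (GGCGGGGA on the other), an octamer described as a mild-cold responsive element of Cirbp, and a pair of heat shock units, written GAANNTTC or TTCNNGAA, which read the same on both strands. Cirbp lies at chr10:80167589-80167777 (plus strand, 189 bases, ending where the first annotated exon begins), Serpinh1 at chr7:99353240-99353489 (minus strand) and Hspa1b, the gene of inducible HSP70, at chr17:34959239-34959488 (minus strand).
Cirbp: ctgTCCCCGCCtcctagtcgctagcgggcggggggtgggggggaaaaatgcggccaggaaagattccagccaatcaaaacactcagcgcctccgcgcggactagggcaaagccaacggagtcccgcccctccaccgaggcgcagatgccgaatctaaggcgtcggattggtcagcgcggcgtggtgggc
Serpinh1: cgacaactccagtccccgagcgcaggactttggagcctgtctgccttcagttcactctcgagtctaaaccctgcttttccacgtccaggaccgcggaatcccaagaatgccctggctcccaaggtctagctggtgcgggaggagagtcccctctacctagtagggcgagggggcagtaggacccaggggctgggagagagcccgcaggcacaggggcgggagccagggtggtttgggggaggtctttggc
Hspa1b: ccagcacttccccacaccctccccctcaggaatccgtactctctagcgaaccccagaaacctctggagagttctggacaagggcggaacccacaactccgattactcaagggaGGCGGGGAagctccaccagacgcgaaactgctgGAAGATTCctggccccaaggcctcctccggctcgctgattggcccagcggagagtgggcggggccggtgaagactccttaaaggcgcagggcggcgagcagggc
The first Cirbp window held TCCCCGCC once, 186 bases before the first annotated exon and 247 bases before the RefSeq start, which lies inside that exon; a second Cirbp window, around a start farther downstream, held none. Hspa1b held the octamer once as well, on the opposite strand, beside its heat shock pair GAAGATTC, and Serpinh1 held neither. Among the other chaperone genes that HSF1 controls, Bag3, Dnaja1, Dnajb4 and Hspa1a also had a window with the octamer, so it was not particular to Cirbp. The octamer, searched on both strands, was present in 4.64% of 32851 windows of 250 bases. The first Cirbp window was also searched over 250 bases, of which 61 exonic bases are not printed. None of the 5 windows of the 4 genes held a GAANNTTC or a TTCNNGAA, and 12.8% of all windows held at least 1 of them. A match is a description of the letters and not of binding, and a window without one says nothing of the factor.

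Library totals ran from 43786209 to 51734166 counts, and 19034 to 19508 genes had at least 1 count. Mitochondrial genes took 1.5% to 1.62% of the counts. Of 7 osteocyte markers 3 were tested (Pdpn, Gja1 and Phex). Dmp1 fell below the filter, with 0 to 12 counts in the non-irradiated and 3 to 29 counts in the irradiated libraries. Sost, Mepe and Fgf23 had 0 counts in each library. A level of 0.0685 CPM or less (3 counts in the library with the lowest total, counting error only) could have been missed. That floor treats estimated counts as plain counts and is approximate. The summed osteocyte list lay at 738.5 to 764.8 CPM in non-irradiated and 927.2 to 960.6 CPM in irradiated libraries, through Pdpn and Gja1. The defining macrophage markers Ptprc and Adgre1, the endothelial Cdh5 and Kdr, the epithelial Epcam, Cdh1 and Krt8, the adipocyte Adipoq, Lep and Cidec and the muscle Myod1 were at 0 as well. Other members of these lists did have counts. Sums reached at most 0.915 CPM for the endothelial, 0.712 for the adipocyte and 0.120 for the epithelial list. Of 5 muscle markers only 1 was at 0. Their sum, mainly Acta1, was 2.71 to 4.73 CPM without and 2.17 to 4.08 CPM with irradiation. The summed macrophage list, carried mainly by Csf1r, ranged from 17.4 to 20.9 CPM without and from 28.1 to 31.4 CPM with irradiation. The part of these markers in the results was not tested. After the deposited columns, non-irradiated libraries bear the names C5 to C8, and irradiated ones L5 to L8.

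The 6 genes were expressed at widely different levels. Per kilobase of annotated exon, Serpinh1 was the highest, at 263.6 ± 2.41 CPM per kb (SD, n = 4) in non-irradiated cells, above 99.1% of the tested genes with a known length. Rbm3 followed at 64.9 ± 1.35 and Hsbp1 at 43.3 ± 2.27 CPM per kb. Cirbp stood at 12.9 ± 0.346, Hsf1 at 8.03 ± 0.240 and Hsf2 at 2.60 ± 0.168 CPM per kb. Each neighbour in that order was separated by more than the spread of the libraries, in both groups. With the median length of the protein-coding transcripts in place of all exons, the order was the same, although Serpinh1 (302.6 ± 2.76 CPM per kb) and Rbm3 (253.2 ± 5.27) then lay close together. Of the cold-induced pair, Rbm3 was thus far more abundant than Cirbp on either length, and of the heat shock factors Hsf1 more abundant than Hsf2.

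None of the 6 genes passed the test between irradiated and non-irradiated cells 6 h after exposure (0 of 6 in edgeR's quasi-likelihood test at a threshold of 0.05, with p adjusted by Benjamini-Hochberg over 15164 genes). Over all tested genes 15% passed, 8.22% as higher and 6.75% as lower. At an unadjusted p under 0.05 the count was also 0 of 6, against 27.4% of tested genes, and with DESeq2 and with limma-voom it was 0 of 6 by either measure. The groups overlapped in every one of the 6 genes, whereas they did not overlap in 18.5% of tested genes. Log2 fold changes (irradiated against non-irradiated) ran from -0.024 to 0.10, with a median absolute value of 0.031 against 0.13 over all tested genes. These comparisons with all tested genes were not matched for expression level. Non-irradiated mean CPM of the 6 genes was above that of 51.4% (Hsf2) to 98.9% (Serpinh1) of tested genes. Every 95% interval lay between 0.888-fold and 1.18-fold of the non-irradiated level, so larger changes in the mean lay outside the intervals of all 6 genes.

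**Figure D1:**
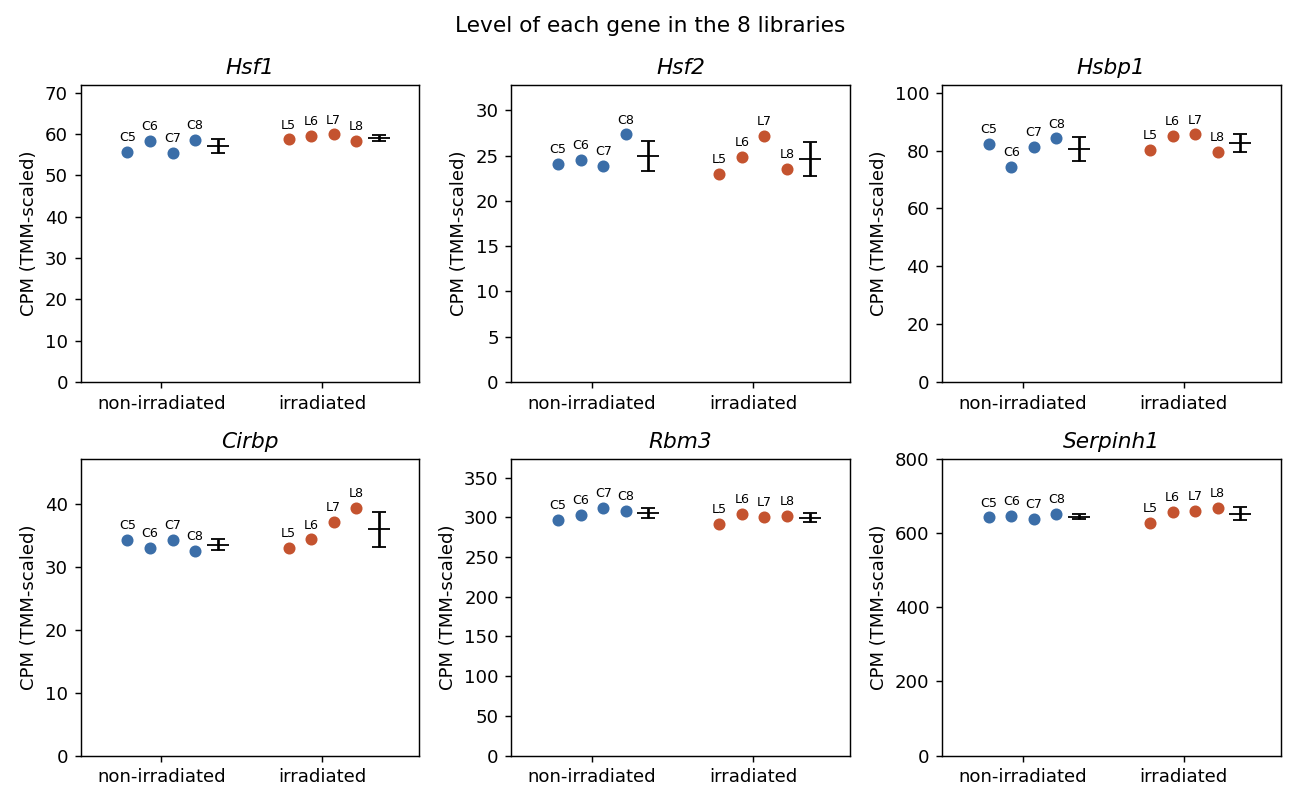
TMM-scaled CPM (y axis, from 0) of Hsf1, Hsf2, Hsbp1, Cirbp, Rbm3 and Serpinh1 in the 4 non-irradiated (blue) and 4 irradiated (orange) libraries, each point 1 library, with the mean and SD beside them. The groups overlap in all 6 panels, and in Cirbp the libraries L7 and L8 (37.1 and 39.3 CPM) lie above all others.

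Hsf1 (ENSMUSG00000022556.12), the main heat shock factor, read 55.7, 58.3, 55.3 and 58.6 CPM in C5, C6, C7 and C8 and 58.7, 59.5, 59.9 and 58.2 CPM in L5, L6, L7 and L8. Of the irradiated libraries 3 lay above every non-irradiated one, L5 by a narrow margin, and L8 lay within their range. The means were 57.0 ± 1.70 and 59.1 ± 0.754 CPM, a log2 fold change of 0.051 (SE 0.046, 95% interval -0.045 to 0.15, edgeR adjusted p = 0.529).

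Hsf2 (ENSMUSG00000019878.9) gave 24.1, 24.5, 23.9 and 27.3 CPM in C5 to C8 and 23.0, 24.9, 27.2 and 23.6 CPM in L5 to L8. A high library stood in each group, C8 and L7, and the other libraries lay together between 23.0 and 24.9 CPM. The log2 fold change was -0.018 (SE 0.073, interval -0.17 to 0.13, edgeR adjusted p = 0.911), the widest interval of the 6, and its sign turned without C8, L5 or L8 (0.029, 0.014 and 0.0022). Hsf2 also had the fewest counts of the 6, with 1099 to 1375 counts a library.

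Hsbp1 (ENSMUSG00000031839.8), the gene of the HSF-binding protein, stood at 82.3, 74.5, 81.3 and 84.2 CPM in C5 to C8 and at 80.2, 85.2, 85.6 and 79.6 CPM in L5 to L8. C6 was the low library, L6 and L7 were slightly above all others, and the groups overlapped. The means of 80.6 ± 4.23 and 82.6 ± 3.19 CPM differed by 0.037 on the log2 scale (SE 0.047, interval -0.062 to 0.13, edgeR adjusted p = 0.688).

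Of the other genes of this family only Hsf4, a factor best known from the lens, was expressed above the filter. Its means were 16.6 ± 1.78 CPM without and 15.1 ± 0.965 CPM with irradiation (log2 fold change -0.14, SE 0.091, edgeR adjusted p = 0.347). Hsf3 and Hsfy2 had 0 counts in each library. Hsf5, Hsf2bp and Hsbp1l1 summed to 8, 8 and 10 counts over the non-irradiated and 33, 24 and 8 counts over the irradiated libraries and were not tested.

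Cirbp (ENSMUSG00000045193.14), the cold-inducible RNA-binding protein, had 34.2, 33.0, 34.3 and 32.5 CPM in C5 to C8. Irradiated libraries L5 to L8 had 33.0, 34.3, 37.1 and 39.3 CPM. L7 and L8 stood above the rest, L6 was just above the highest non-irradiated library and L5 within their range, so the groups overlapped. The irradiated libraries were the more scattered, with a coefficient of variation of 7.85% against 2.69%. Cirbp showed the largest difference of the 6 genes, with means of 33.5 ± 0.901 and 36.0 ± 2.82 CPM, a log2 fold change of 0.10 (SE 0.063, interval -0.029 to 0.23, edgeR adjusted p = 0.318). Of all tested genes 42.8% had a smaller absolute change than Cirbp, a rank not matched for expression level. Without L5 the change was 0.14 (unadjusted p = 0.0438, edgeR adjusted p = 0.192), and without L8 it was 0.055.

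Rbm3 (ENSMUSG00000031167.17), its close relative, was about equally high in all libraries, with 296.8, 303.2, 311.5 and 307.9 CPM in C5 to C8 and 291.4, 304.4, 301.0 and 302.2 CPM in L5 to L8. L5 was the lowest of the 8 and the other irradiated libraries fell inside the non-irradiated range. The means were 304.8 ± 6.34 and 299.7 ± 5.75 CPM, a log2 fold change of -0.024 (SE 0.030, interval -0.087 to 0.038, edgeR adjusted p = 0.669). Rbm3 overlaps the antisense gene Rbm3os and has a processed copy, Rbm3-ps, and whether counting used strand is not given in the sources used here. Rbm3os had 0 to 21 and Rbm3-ps 117 to 156 counts a library, against 13036 to 15695 for Rbm3.

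Serpinh1 (ENSMUSG00000070436.13), the collagen chaperone, was at 642.0, 646.5, 636.9 and 650.6 CPM in C5 to C8, and at 626.0, 657.7, 658.6 and 666.7 CPM in L5 to L8. The non-irradiated libraries varied by 0.913% (coefficient of variation), the smallest spread among the 6 genes, and the irradiated ones lay on both sides of them. Means of 644.0 ± 5.88 and 652.3 ± 18.0 CPM gave a log2 fold change of 0.018 (SE 0.027, interval -0.039 to 0.076, edgeR adjusted p = 0.741), which was -0.0044 when library totals alone set the scale. Its 95% interval corresponds to 0.973-fold to 1.05-fold.

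**Figure D2:**
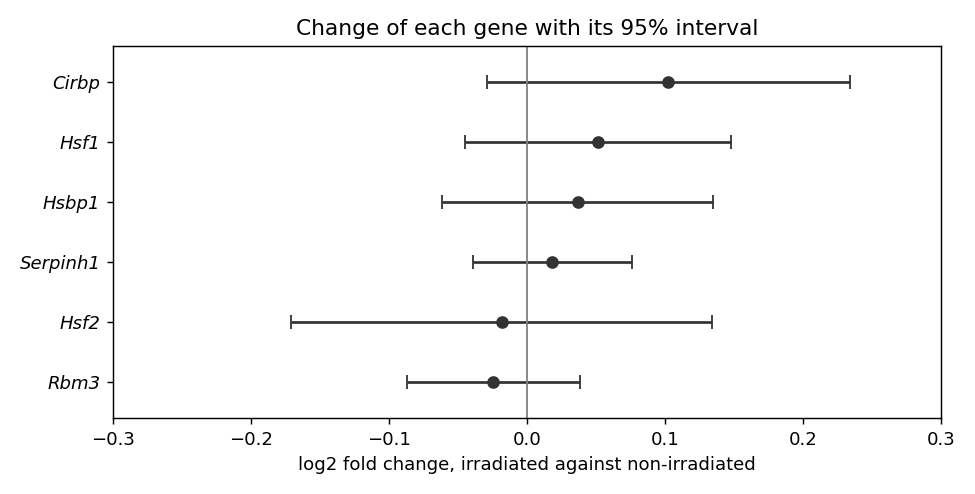
Log2 fold change (x axis, irradiated against non-irradiated) of each of the 6 genes, with bars for the 95% interval from the quasi-likelihood fit (n = 4 per group). Every bar crosses 0; Hsf2 has the widest and Serpinh1 the narrowest, and Cirbp lies farthest from 0 at 0.10.

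Ratios within a library do not depend on how libraries are scaled, so 3 ratios of related genes were compared between the groups. The log2 ratio of Cirbp to Rbm3 was -3.12, -3.20, -3.18 and -3.24 in C5 to C8 and -3.14, -3.15, -3.02 and -2.94 in L5 to L8. L7 and L8 had the highest ratios and C5 lay above L5 and L6, so the groups overlapped. The means were -3.19 ± 0.053 and -3.06 ± 0.10, a difference of 0.12 that did not pass (two-sided exact permutation test, p = 0.0857, adjusted p = 0.257 over 3 ratios, smallest possible p = 0.0286). Hsf1 to Hsf2 differed by 0.071 (1.19 ± 0.064 against 1.26 ± 0.093, exact permutation p = 0.257, adjusted p = 0.386). Hsf1 to Hsbp1 differed by 0.014 (-0.50 ± 0.098 against -0.48 ± 0.038, exact permutation p = 0.771, adjusted p = 0.771), with C6 as the high library.

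**Figure D3:**
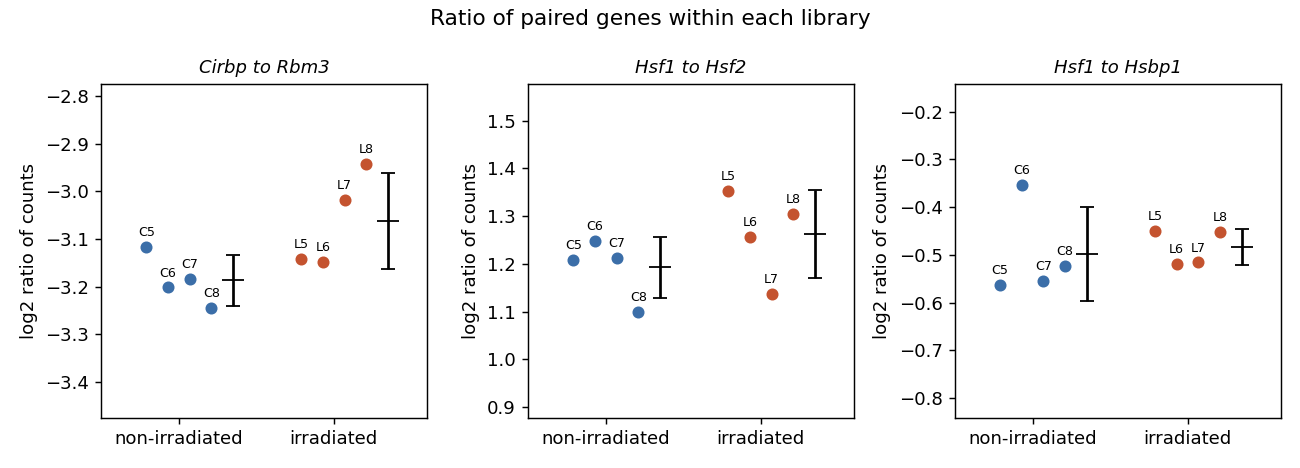
Log2 ratio of counts (y axis, each panel spans the same width and does not start at 0) of Cirbp to Rbm3, Hsf1 to Hsf2 and Hsf1 to Hsbp1 in each non-irradiated (blue) and irradiated (orange) library, with mean and SD (n = 4). L7 and L8 have the highest Cirbp to Rbm3 ratios, at -3.02 and -2.94, and the groups overlap in all 3 panels.

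Genes whose proteins hold HSF1 inactive, modify it, bind it or assist it were mostly not called. Of 19 tested regulators 1 rose, 1 fell and 17 did not pass, a share of 10.5% against 15% over all tested genes, with a median log2 fold change in the list of -0.049 against -0.0065. Daxx, a nuclear protein reported to bind HSF1, was the one that fell, from 77.4 ± 2.36 to 61.4 ± 1.61 CPM (-0.33 on the log2 scale, SE 0.044, edgeR adjusted p = 2.28e-05), with no overlap. Hsp90aa1, the inducible HSP90, rose slightly from 1014.2 ± 10.7 to 1081.4 ± 26.5 CPM (log2 fold change 0.093, edgeR adjusted p = 0.0194). Its call ended when C5, C8, L5, L7 or L8 was left out. It also ended when library totals alone set the scale, and with the column number as a replicate block. Over these settings the edgeR adjusted p ran from 0.0506 to 0.0687. The count of called regulators was 1 without L5, L7 or L8, where 1731, 1705 and 1776 of all tested genes were called. With library totals alone 0 regulators rose and 3 fell.

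Chaperone genes that HSF1 controls moved in both directions. Among 22 targets 4 rose, 3 fell and 15 did not pass, a share of 31.8% against 15% over all tested genes, with a median log2 fold change of 0.0025. With library totals alone 2 rose and 3 fell, Hspd1 (edgeR adjusted p = 0.0650) and Hsp90aa1 being the calls that ended. Hsph1, an HSP110 that reloads HSP70, rose from 152.3 ± 6.70 to 186.4 ± 7.33 CPM (0.29 on the log2 scale, SE 0.039, edgeR adjusted p = 2.54e-05). Dnajb4, an HSP40 co-chaperone, rose from 74.2 ± 2.17 to 88.8 ± 3.67 CPM (0.26, SE 0.044, edgeR adjusted p = 0.000319), and both were higher in each of the 4 irradiated libraries. Cryab, a small heat shock protein, fell from 8.75 ± 0.675 to 6.25 ± 1.25 CPM (-0.48 on the log2 scale, SE 0.14, edgeR adjusted p = 0.0230), though L5 at 8.01 CPM lay above C6 at 7.81 CPM. Hspd1 (0.11) and Hsp90aa1 (0.093, in both lists) also rose and Ubb (-0.22) and Hspa4l (-0.19) fell. Hspd1, Ubb and Hspa4l were chosen after their values were seen. The lists of regulators and targets also share Hsp90ab1, Hspa8, Dnajb1 and Fkbp4, none of them called, so their shares are not independent. Hspa1a and Hspa1b, the classic heat-induced pair, stood at 5.52 ± 0.183 against 6.08 ± 1.14 CPM and at 18.2 ± 2.32 against 19.9 ± 1.12 CPM (edgeR adjusted p = 0.619 and 0.403), and being near-identical they can share reads. The number of called targets, of 22, was 7 with all libraries, 3 without C5 or L8 and 4 without C7, L5 or L7. Over all tested genes 1769 of 15505 were called without C5 and 1776 of 15477 without L8. Without C7, L5 and L7 the calls were 1672 of 15472, 1731 of 15465 and 1705 of 15501. Cryab, Hspd1, Hsp90aa1 and Hspa4l were the target calls that ended. Cryab was not called when any library but C6 or L5 was left out, Hspd1 without C5, C7, L5 or L8, and Hspa4l without any single library except C8, nor by limma-voom or with a filter of at least 1 count. With the column number as a replicate block, Hspd1, Hsp90aa1 and Hspa4l were not called.

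The heat shock pair shown in capitals in the Hspa1b window was counted in the windows of these targets. A GAANNTTC or TTCNNGAA was present in 10 of 24 windows, belonging to 9 of the 17 target genes with a window (Dnaja1, Dnajb4, Fkbp4, Hspa1a, Hspa1b, Hspb1, Hspd1, Hspe1 and Hsph1), against 12.8% of all windows. Of these 9 genes 3 rose (Dnajb4, Hspd1 and Hsph1) and 0 fell, with a median log2 fold change of 0.11. That median was the value of Hspd1 itself, whose call ended in 6 of the 16 alternatives. Over all tested genes 8.22% were called higher and 6.75% lower. The windows of Hspd1 and Hspe1 with 3 pairs each overlap, and Hspe1 did not pass (-0.068, edgeR adjusted p = 0.503). The Hsph1 windows also overlap and share their pair, and those of Hspa1a and Hspa1b are near-identical, so the 10 windows are not separate. By annotation all 250 bases of that Hspd1 window, and 218 bases of the Dnaja1 window with a pair, were exonic in their own gene. Of the 8 target genes whose windows held none, 0 rose and 2 fell (Hspa4l and Ubb), with a median of -0.013. The call of Hspa4l ended in 10 of the 16 alternatives. The called targets Hsp90aa1 (higher) and Cryab (lower) had no window and are in neither set. The split by window was not among the planned comparisons, and the difference between these 2 sets of genes was not tested.

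Genes of temperature-dependent splicing, in which CLK kinases act on SR proteins, moved upward where they passed the test. Of 17 genes 8 rose, 0 fell and 9 did not pass, a share of 47.1% against the 8.22% of tested genes called higher, and the median log2 fold change was 0.10. That comparison was not matched for expression level, and the list was chosen with earlier results of these data known. With a filter of mean 1 CPM 8 rose again, while 1418 of 12520 tested genes were called higher. The risen genes were Srsf5, Tra2b, Tra2a, Srsf2, Srsf7, Srsf11, Srsf6 and Srsf3, all of the SR family or close to it and all without overlap of the groups. Srsf5, a serine-arginine splicing factor, read 136.8, 141.8, 131.6 and 143.4 CPM in C5 to C8 and 184.7, 184.2, 176.8 and 190.8 CPM in L5 to L8. Every irradiated library was thus well above every non-irradiated one (log2 fold change 0.41, SE 0.037, edgeR adjusted p = 1.60e-07). Tra2b rose from 161.0 ± 5.46 to 183.7 ± 3.88 CPM (0.19, SE 0.035, edgeR adjusted p = 0.000676) and Tra2a from 120.5 ± 1.09 to 136.8 ± 3.63 CPM (0.18, SE 0.035, edgeR adjusted p = 0.000986). Clk1 and Clk4, kinases of these factors whose activity is known to increase as temperature falls, did not pass, at log2 fold changes of 0.017 (SE 0.054) and 0.12 (SE 0.065). With library totals alone 6 rose and Srsf1 fell (-0.090); Srsf3 and Srsf6 were the calls lost there. Srsf6 was also not called without C8, L5 or L8, and Srsf3 without C5, C7, L5, L7 or L8. With the column number as a replicate block 6 rose and 0 fell, and Srsf6 and Srsf3 were again the calls lost.

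Of 14 tested RNA-binding relatives of CIRBP and RBM3, 1 rose, 2 fell and 11 did not pass, a share of 21.4% against 15% over all tested genes. Rbmx, a close relative, fell from 38.4 ± 1.40 to 29.8 ± 2.72 CPM (-0.36 on the log2 scale, SE 0.066, edgeR adjusted p = 0.000685); its copy Rbmxl1, with which it can share reads, stood at 74.9 ± 4.24 against 72.1 ± 4.11 CPM (edgeR adjusted p = 0.571). Hnrnpd, which binds AU-rich elements, rose from 157.8 ± 2.62 to 185.8 ± 6.22 CPM (0.24, SE 0.034, edgeR adjusted p = 6.19e-05). Hnrnpa1 fell from 364.9 ± 7.45 to 324.3 ± 2.66 CPM (-0.17, SE 0.028, edgeR adjusted p = 0.000268). Hnrnpa3, chosen after its values were seen, fell into separate levels across both groups: C5, C6, C7 and L6 had 30.3 to 43.5 CPM and C8, L5, L7 and L8 had 111.7 to 121.0 CPM.

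The genes that work beside SERPINH1 on procollagen mostly did not pass the test. Of 23 tested folding and modification genes 3 rose, 1 fell and 19 did not pass (17.4% against 15%), with a median log2 fold change of 0.027. P3h1, a prolyl 3-hydroxylase, rose from 61.1 ± 1.63 to 74.7 ± 3.45 CPM (0.29, SE 0.047, edgeR adjusted p = 0.000199), while Crtap and Ppib, its partners in 1 complex, gave -0.045 and 0.021 (edgeR adjusted p = 0.542 and 0.770). The lysyl hydroxylase genes Plod3 and Plod2 rose from 344.0 ± 11.9 to 387.3 ± 11.1 CPM and from 274.2 ± 13.2 to 306.8 ± 9.11 CPM (edgeR adjusted p = 0.000913 and 0.00397). P3h3, chosen after its values were seen, fell (-0.10, edgeR adjusted p = 0.0371). Its call ended without C5, C7, L5, L6 or L7, with a filter of at least 1 count and with the column number as a replicate block.

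Of 10 tested fibrillar collagen genes, whose products are clients of SERPINH1, 2 rose, 2 fell and 6 did not pass, a share of 40% against 15% over all tested genes. Col11a1 rose from 102.0 ± 6.59 to 126.5 ± 3.59 CPM (0.31, SE 0.045, edgeR adjusted p = 5.48e-05) and Col1a2, chosen after its values were seen, from 44.9 ± 0.825 to 53.4 ± 2.25 CPM (0.25, edgeR adjusted p = 0.00151). Col5a3 fell from 683.0 ± 16.5 to 509.3 ± 20.2 CPM (-0.42, SE 0.031, edgeR adjusted p = 1.19e-08) and Col11a2 fell from 4.62 ± 0.915 to 2.18 ± 0.300 CPM (-1.08, SE 0.193, edgeR adjusted p = 0.000538). Col1a1 and Col3a1, the abundant clients, gave 1112.1 ± 59.9 against 1140.3 ± 40.6 CPM and 1239.2 ± 32.2 against 1203.4 ± 32.6 CPM (edgeR adjusted p = 0.581 and 0.356).

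**Figure D4:**
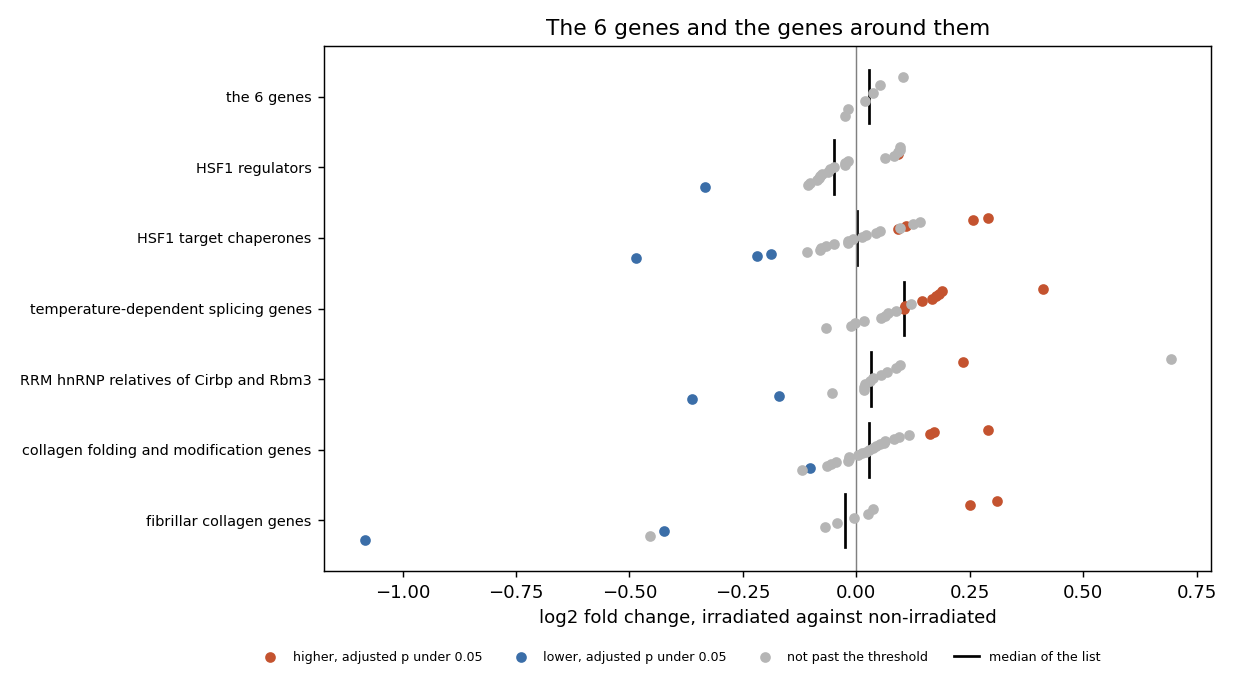
Log2 fold change (x axis, irradiated against non-irradiated) of each tested gene, for the 6 genes and 6 lists of related genes. Each list has 1 point a gene, and a gene in both the regulator and target lists is drawn in each. Orange and blue points passed the edgeR test (adjusted p under 0.05), grey points did not, and black lines are medians; the 6 genes are all grey between -0.024 and 0.10, while 8 of 17 splicing genes are orange.

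The genes most like each of the 6 in their values over the 8 libraries were sought among 10048 genes whose mean was 5 CPM or more. By Pearson's r of log2 CPM, Cirbp was nearest to Nceh1 (0.933), Fahd1 (0.931) and Slc22a4 (0.930), and Rbm3 to Gmppa (0.982), Clcc1 (0.938) and Tbce (0.935). Hsf1 was nearest to Adgra3 (0.983), Metap2 (0.982) and Fem1b (0.960), and Hsf2 to Rhog (0.945), Smim13 (0.926) and Rpn2 (0.907). For Hsbp1 they were Sap30bp (0.948), Gnb5 (0.948) and Emc10 (0.936), and for Serpinh1 Cdc25b (0.963), Med6 (0.957) and Copg1 (0.908). These are the highest of 10048 values over 8 libraries that share depth and scaling. No gene was near to more than 1 of the 6, and none of the 18 passed the test between the groups (lowest edgeR adjusted p = 0.119, Fem1b).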

How the data were processed

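The deposited table holds whole-number estimated counts per gene, not normalized, for 4 non-irradiated and 4 irradiated libraries. Per the submitters' processing notes the authors used build GRCm39 and the tools DESeq2 1.32.0, StringTie 2.1.7, HISAT2 2.2.1, FastQC 0.11.9 and Trimmomatic 0.39. The sources used here give no order, settings, annotation release or strand. The value 4 occurs 6096 times, against 4006 for 3 and 2428 for 5, so no Poisson intervals were computed and the floor given for genes at 0 counts is approximate. Columns are numbered 5 to 8 and sample titles 1 to 4, so a column was tied to its group only. Identifiers were matched without version to GENCODE M21 symbols (52083 of 55359).

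Genes were kept by filterByExpr (minimum count 10), scaled by TMM and tested with edgeR 4.0.16 (R 4.3.3, quasi-likelihood, robust=TRUE, group only), Benjamini-Hochberg over 15164 genes at 0.05. The code was checked on data simulated with the same dispersion for every gene, and no result here rests on that check. A standard error is the log2 fold change divided by the root of F, and 95% intervals use the fit's degrees of freedom. CPM uses TMM-scaled totals. Lengths and promoter windows (GRCm38) served for levels per kilobase and letters only. DESeq2 1.42.0, limma-voom (limma 3.58.1), other scalings and filters, counts divided by 4, a column-number block and leaving out each library were alternatives; the coding-transcript length was added after seeing the data. The 6 genes and all lists were chosen with earlier results of these data known. The text names the 6 genes, up to 3 called genes with the largest change from each list (or the 1 with the lowest p), and the 3 genes most like each of the 6. Other list genes (Clk1, Clk4, Crtap, Ppib, Hspa1a, Hspa1b, Hspe1, Rbmxl1, Col1a1, Col3a1 and the remaining Srsf genes) were chosen after their values were seen.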

Additional observations from a re-analysis of the deposited data

Results flagged for a closer look

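In 3 of the 54 groups of 4 libraries examined, 1 library lay far from the other 3 by the gap between it and its nearest neighbour; chance alone gives about 1 in 20. None of these groups belonged to Hsf1, Hsf2, Hsbp1, Cirbp, Rbm3, Serpinh1 or their ratios. Hsp90aa1 in irradiated L6 had 1041.9 CPM against 1091.0 to 1098.5 CPM in the other irradiated libraries. Tra2a in non-irradiated C6 had 122.1 CPM against 119.8 to 120.1 CPM. Hnrnpd in non-irradiated C7 had 153.8 CPM against 158.9 to 159.3 CPM.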

How the results depend on the processing

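None of the 6 genes passed the threshold under any of the 16 alternatives, with adjusted p from 0.192 (Cirbp without L5) upward. Hsf1, Hsbp1, Cirbp and Rbm3 kept their sign throughout, with Cirbp between 0.055 and 0.14. Serpinh1 was -0.0044 with library totals only, a scaling that moved the median of all genes to -0.029 and the calls over all genes from 1247 higher and 1023 lower to 1050 and 1345. Leaving out 1 library gave Hsf2 between -0.065 and 0.029 and the Hsf1 to Hsbp1 ratio between -0.0070 (without C5; -0.0044 without C7) and 0.063. With 1 library left out, 1672 to 2673 genes were called over all tested genes, against 2270 with all libraries. Called HSF1 regulators then numbered 1 to 3 and called target chaperones 3 to 6, against 2 and 7. With the column number as a replicate block they were 1 and 4, and 1757 genes were called in all. That block rests on a shared number only: deviations of same-numbered libraries correlated at -0.056 to -0.0054. Of the recomputed values 235 kept their direction and side of the threshold, or for counts stayed within 1.5 times; 6 reversed and 10 counts moved. The cause of these shifts was not tested. Hsf2 had the fewest counts of the 6 genes.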
